A study of Mus musculus with 18 samples.

Results

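The IGF axis was followed through 10 genes of the 54532 in the gene count table: the ligand gene *Igf1*, its receptor gene *Igf1r*, the adaptor genes *Irs1* and *Irs2*, and 6 genes of the IGF-binding protein family, *Igfbp2* to *Igfbp7*. The members were taken by gene name, and each name matched 1 row of the table. The 18 libraries came from 10T1/2 cells, a multipotent mouse embryonic fibroblast line that can be driven towards adipocytes. There were 3 libraries in each of 6 groups. WT cells and cells labelled FOXS1 KO clone 1 or FOXS1 KO clone 2 were each sampled uninduced or TGF-β1 + DMII stimulated. Stimulated cells received TGF-β1 at 1 nM over 12 h, and DMII over the following 48 h. DMII, an adipogenic mix, contains insulin besides dexamethasone, indomethacin and the phosphodiesterase inhibitor 3-isobutyl-1-methylxanthine, so every stimulated group had been given insulin. Each KO line was 1 clone grown from a single cell after transfection with Cas9 and a pair of guides against *Foxs1*. The methods give a separate induction medium and a night without serum ahead of TGF-β1, and how the uninduced cells were kept is not given in the sources used here, so any part of these in the response cannot be told apart from TGF-β1 and DMII.

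IGF1 binds the receptor tyrosine kinase encoded by *Igf1r*, and insulin at high concentration can bind it as well as its own receptor. Both receptors phosphorylate the IRS adaptor proteins, which recruit PI3 kinase and start AKT signalling. The secreted IGF-binding proteins hold IGFs outside cells, and proteases that cut these proteins release the IGFs. IGFBP7 binds IGFs only weakly and is known mostly as a matrix-associated protein. In fat precursors, IGF1 and insulin are known to promote adipocyte formation.

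Library totals ranged from 15576685 to 42005596 counts. *Foxs1* itself did not follow the KO labels at the level of RNA: its mean was 2.23 ± 0.89 CPM (SD, n = 3; CPM are counts scaled by TMM to a common library size) in uninduced WT and 2.51 ± 0.64 CPM in stimulated WT, against 25.7 ± 2.0 and 54.5 ± 2.1 CPM in the libraries labelled clone 1 and 22.6 ± 1.4 and 39.9 ± 2.6 CPM in those labelled clone 2. A count over the whole gene does not show whether an edit is present. The paper reports that sequencing of genomic DNA showed a disrupted locus and that western blots showed loss of FOXS1 protein in both clones. Those data are not analysed here, so every direction below rests on the labels. Of 8 fibroblast markers, at least 7 reached 1 CPM in each group. The summed level of 5 mature adipocyte markers was 14.3 to 18 CPM in stimulated labelled clone 1 and at most 1.28 CPM in any library of the other groups. The 3 endothelial markers summed to 5.03 to 7.92 CPM in uninduced WT and to at most 0.777 CPM in any library of the other groups, and the part of either marker list in the differences below was not tested. In 1 library, uninduced labelled clone 1 replicate 3, the hepatocyte markers *Alb*, *Ttr* and *Apoa1* summed to 73.3 CPM, against 0 to 0.512 CPM in the other 17.

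The plot of levels by library shows all 10 genes. Nothing in the labels says that replicates were separate cultures, so each p-value below measures only the spread between these libraries. A difference was called where the adjusted p of edgeR's quasi-likelihood test (Benjamini-Hochberg over all tested genes) was below 0.05 and the absolute log2 fold change was above 1, and the value after a log2 fold change is its standard error (SE).

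**Figure D1:**
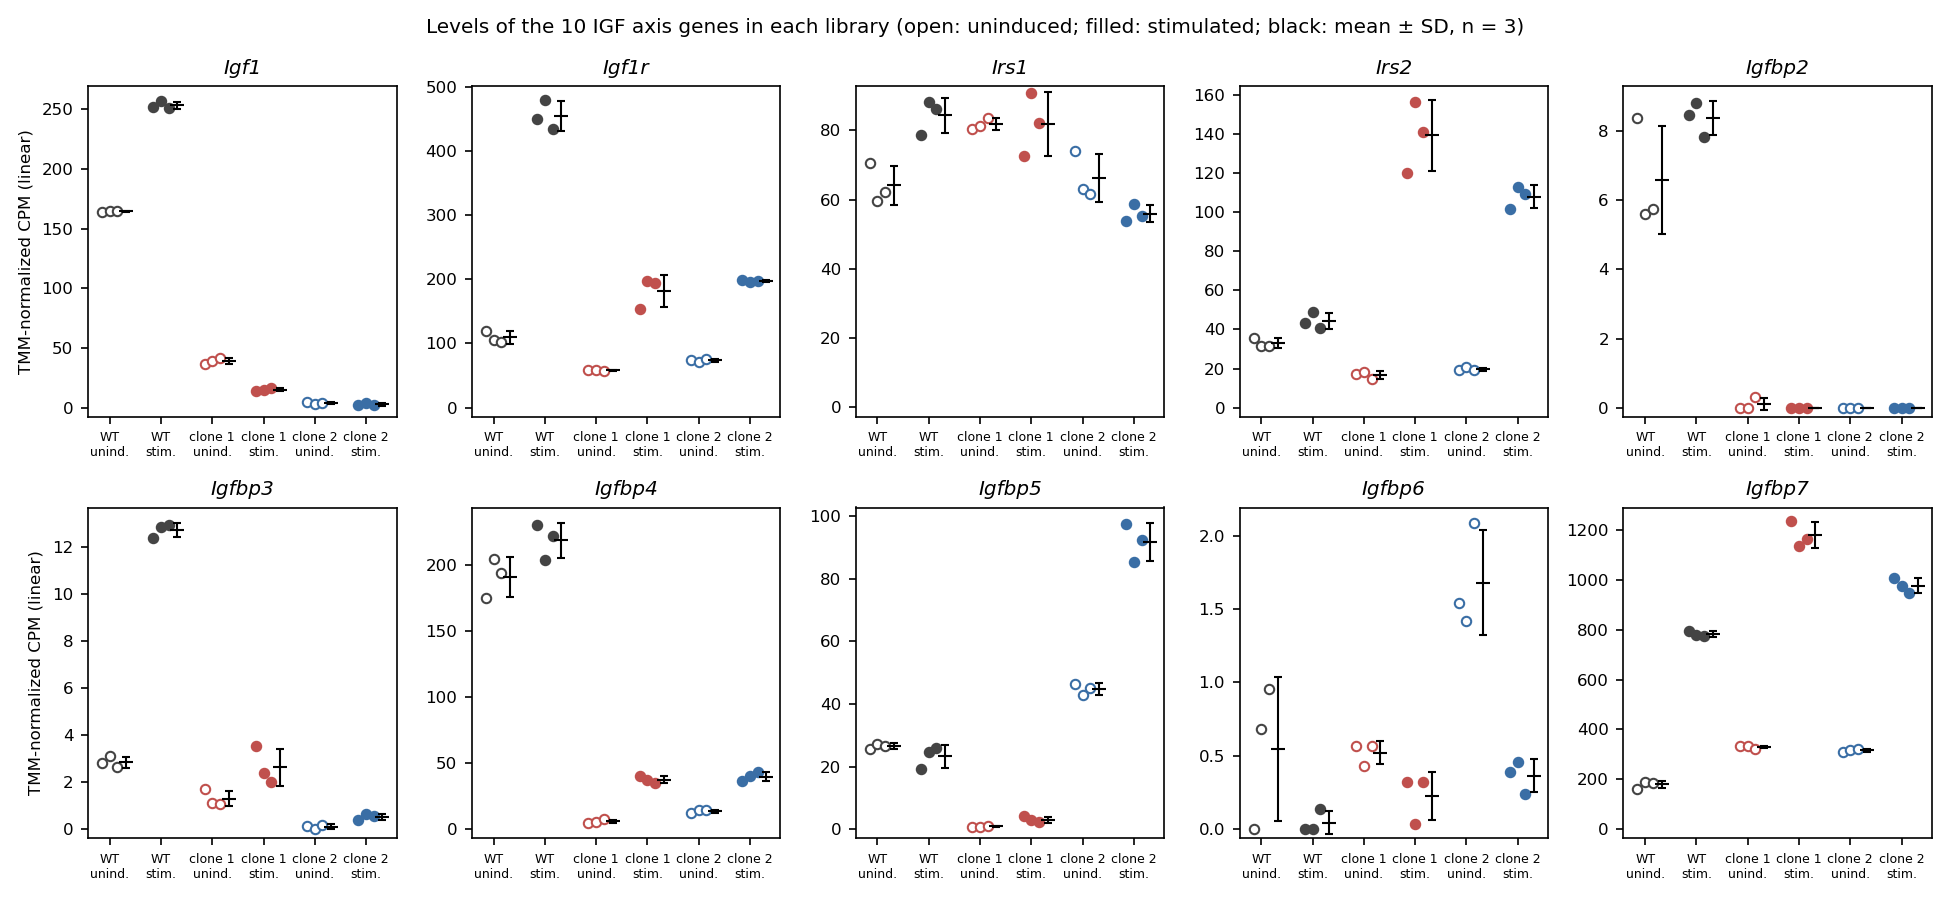
Level of each of the 10 IGF axis genes in TMM-normalized CPM (vertical axes, linear, a separate scale for each gene) in the 6 groups, with 1 point per library, open for uninduced and filled for stimulated cells, and the mean ± SD (n = 3) in black beside the points. *Igf1* stood at 253 CPM in stimulated WT against 2.66 CPM in stimulated labelled clone 2, *Irs2* was highest in both stimulated KO-labelled groups, and *Igfbp2* had counts in only 1 of the 12 KO-labelled libraries.

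*Igf1* (ENSMUSG00000020053, GRCm38 chr10:87858265-87937042, plus strand), the ligand gene, was high in WT and low in both labelled clones. Its level was 164, 165 and 165 CPM in the uninduced WT libraries and 252, 257 and 251 CPM in the stimulated ones. In labelled clone 1 it was 36.2, 38.9 and 41.8 CPM uninduced and 13.8, 14.7 and 16.7 CPM stimulated. In labelled clone 2 it was 4.6, 3.28 and 3.88 CPM uninduced and 1.90, 3.73 and 2.35 CPM stimulated. Every library labelled KO lay below every WT library, and the 2 clones did not overlap each other in either treatment. In bulk RNA, fewer cells expressing *Igf1* and less *Igf1* RNA per cell cannot be told apart.

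Relative to WT, *Igf1* was 4.22-fold lower in uninduced labelled clone 1 (log2 fold change −2.08 ± 0.08 SE, edgeR quasi-likelihood test, Benjamini-Hochberg adjusted p = 2.24e-18) and 40.6-fold lower in uninduced labelled clone 2 (−5.34 ± 0.11, edgeR adjusted p = 2.00e-25). After stimulation it was 16.8-fold and 96.6-fold lower (−4.07 ± 0.09 and −6.59 ± 0.15). Stimulation moved *Igf1* up in WT, by 0.62 ± 0.07 on the log2 scale, which passed the adjusted p (edgeR, 2.80e-08) and missed the fold threshold. In labelled clone 1 it fell by 1.37 on the log2 scale. In labelled clone 2 the change was −0.63 ± 0.18 and the uninduced and stimulated libraries overlapped. The response itself differed from that of WT in both, by −1.99 ± 0.12 in labelled clone 1 (edgeR adjusted p = 7.45e-14) and by −1.25 ± 0.19 in labelled clone 2 (edgeR adjusted p = 4.06e-06). The liver is the main source of circulating IGF1, and the library with hepatocyte markers had the highest *Igf1* value of its group, 41.8 CPM. The median log2 fold change of 518 well measured chromosome 10 genes (mean of at least 5 CPM) was −0.41 in uninduced and −0.43 in stimulated labelled clone 1 and 0.07 and 0.05 in labelled clone 2. The part of either in the *Igf1* values was not tested.

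*Igf1r* (ENSMUSG00000005533, GRCm38 chr7:67952827-68233668, plus strand), the receptor gene, rose with stimulation in all 3 lines and was lower in both labelled clones. It was measured at 120.0, 105 and 102 CPM in uninduced WT and at 449, 480.2 and 434 CPM after stimulation. In labelled clone 1 the values were 58.8, 58.6 and 56.5 CPM uninduced and 153, 198 and 195 CPM stimulated. In labelled clone 2 they were 74.2, 70.6 and 76.1 CPM uninduced and 199.6, 196 and 197 CPM stimulated. No stimulated library overlapped an uninduced library of its own line, and stimulated WT stood above all others.

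The rise of *Igf1r* was 2.06 ± 0.07 on the log2 scale in WT, 1.65 ± 0.07 in labelled clone 1 and 1.42 ± 0.07 in labelled clone 2. Its responses differed from that of WT by −0.41 ± 0.10 and −0.64 ± 0.10 (edgeR adjusted p = 0.00324 and 2.22e-05), both short of the fold threshold. Stimulated levels were 2.5-fold lower in labelled clone 1 and 2.30-fold lower in labelled clone 2 than in WT, both past the test. In uninduced cells the differences of −0.91 ± 0.08 and −0.57 ± 0.07 passed the adjusted p alone.

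*Irs1* (ENSMUSG00000055980, GRCm38 chr1:82233101-82291416, minus strand), an adaptor of both the IGF1 and the insulin receptor, moved least of the 4 signalling members. It ranged from 59.5 to 70.5 CPM in uninduced WT and from 78.6 to 88.2 CPM in stimulated WT. Labelled clone 1 ranged from 80.3 to 83.7 CPM uninduced and from 72.6 to 90.9 CPM stimulated, and labelled clone 2 from 61.7 to 74.1 and from 53.8 to 58.7 CPM. None of its 11 tested differences passed both thresholds, and the widest was −0.65 ± 0.11, the difference in response between labelled clone 2 and WT. An antisense gene, *Gm9747*, lies over 30.9% of its exonic bases, and as the strand setting of the counting is not given, reads of the pair cannot be told apart.

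*Irs2* (ENSMUSG00000038894, GRCm38 chr8:10984681-11008458, minus strand), the second adaptor, rose with stimulation mainly in the KO-labelled libraries. It was 35.8, 31.6 and 31.5 CPM in uninduced WT and 43.1, 48.8 and 40.7 CPM in stimulated WT. In labelled clone 1 it went from 17.5, 18.1 and 14.5 CPM to 120.2, 156 and 141 CPM. In labelled clone 2 it went from 19.4, 20.5 and 19.2 CPM to 102, 113 and 109 CPM. The labelled clones were thus below every WT library before stimulation and above every WT library after it, with no overlap in either treatment.

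The *Irs2* response was 0.43 ± 0.09 on the log2 scale in WT, 3.06 ± 0.09 in labelled clone 1 (8.36-fold) and 2.45 ± 0.09 in labelled clone 2 (5.48-fold). The difference from the WT response was 2.64 ± 0.13 for labelled clone 1 (edgeR adjusted p = 2.03e-15) and 2.03 ± 0.13 for labelled clone 2 (edgeR adjusted p = 4.57e-13). Stimulated levels were 3.15-fold and 2.44-fold above WT. The uninduced differences, −0.98 ± 0.10 and −0.74 ± 0.09, passed the adjusted p alone, and that of labelled clone 1 reached −1.01 to −1.04 without uninduced WT replicate 2 or 3 or without uninduced labelled clone 1 replicate 1 or 2. *Irs2* is known to be transcribed more when insulin signalling is low, through FOXO factors, and its antisense neighbour *9530052E02Rik* covers 2.56% of its exonic bases.

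Since *Irs1* and *Irs2* encode related adaptors but moved differently, their promoters are shown here, with that of *Igfbp2* as the third member window that held a searched motif. RefSeq promoter windows were matched for all 10 members (11 windows), and 250 bases before each start were searched on both strands for GTAAACA (forkhead), TGTTTTG (the core of the insulin response element), CACGTG (E-box), TGACGTCA (cAMP response), GTCTAGAC (SMAD palindrome) and the palindromic glucocorticoid response element. Capitals mark TGTTTTG and CACGTG, and all sequences are from GRCm38.p6 as RefSeq gives it, written 5′ to 3′ on the strand of the gene. None of the 3 windows lies under an exon of the annotation used here.
*Irs1*, chr1:82291440-82291689, minus strand: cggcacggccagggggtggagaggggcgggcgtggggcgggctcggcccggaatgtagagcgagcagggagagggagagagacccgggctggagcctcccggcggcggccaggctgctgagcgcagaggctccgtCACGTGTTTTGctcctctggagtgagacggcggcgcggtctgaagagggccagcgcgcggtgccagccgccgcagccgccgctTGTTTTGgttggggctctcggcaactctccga
*Irs2*, chr8:11008930-11009179, minus strand: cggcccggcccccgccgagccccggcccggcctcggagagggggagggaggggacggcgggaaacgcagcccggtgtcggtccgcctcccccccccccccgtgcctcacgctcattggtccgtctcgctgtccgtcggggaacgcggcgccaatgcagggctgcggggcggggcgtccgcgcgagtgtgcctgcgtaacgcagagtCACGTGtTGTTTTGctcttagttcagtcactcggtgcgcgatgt
*Igfbp2*, chr1:72824230-72824479, plus strand: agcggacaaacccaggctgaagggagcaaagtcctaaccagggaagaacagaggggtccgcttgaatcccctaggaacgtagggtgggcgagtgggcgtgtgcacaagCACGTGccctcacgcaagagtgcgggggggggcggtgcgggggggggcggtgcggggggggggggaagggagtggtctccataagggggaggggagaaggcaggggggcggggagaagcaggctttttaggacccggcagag

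Both adaptor promoters held CACGTG beside TGTTTTG. In *Irs1* the pair started 115 and 111 bases before the transcript start and overlapped, and a further TGTTTTG started at 32 bases. In *Irs2* they started 44 and 37 bases before the start, separated by a single base. These starts are those of RefSeq. The *Irs2* window begins at position 11008930, while the gene as counted reaches only 11008458, and for *Irs1* these positions are 82291440 and 82291416. TGTTTTG was found in 5.56% and CACGTG in 6.02% of all 32851 windows of that length. The other 4 motifs had no match in any member window, against 3.17% of all windows for GTAAACA and 1.55% for TGACGTCA. These matches describe letters in a window and were not tied to any change in level.

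*Igfbp2* (ENSMUSG00000039323, GRCm38 chr1:72824503-72852474, plus strand) encodes a secreted binding protein made by preadipocytes and known to be able to inhibit adipogenesis. It was 8.39, 5.61 and 5.76 CPM in uninduced WT and 8.46, 8.81 and 7.85 CPM in stimulated WT. Of the 12 KO-labelled libraries, 11 had no count. The exception, uninduced labelled clone 1 replicate 3, had 6 counts (0.311 CPM), and it was also the library with hepatocyte markers at 73.3 CPM, whose part in those counts was not tested.

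Against a floor of 3 counts per group, *Igfbp2* was at least 182-fold lower than WT in uninduced labelled clone 2, at least 189-fold lower in stimulated labelled clone 1 and at least 139-fold lower in stimulated labelled clone 2. Such floors cover counting error only. In uninduced labelled clone 1 the fitted difference was −5.90 ± 0.77 (edgeR adjusted p = 2.40e-09) and rested on those 6 counts, as do the fitted response of labelled clone 1 (edgeR adjusted p = 0.0391), its difference from the WT response (edgeR adjusted p = 0.0462) and the uninduced difference between the clones (edgeR adjusted p = 0.0347). Without that library the last 3 were no longer called. In WT the response was 0.35 ± 0.31 and the treatments overlapped.

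*Igfbp3* (ENSMUSG00000020427, GRCm38 chr11:7206086-7213923, minus strand), the main IGF carrier in blood, which TGF-β1 is known to induce in mesenchymal cells, was weakly expressed. It was 2.80, 3.09 and 2.63 CPM in uninduced WT and 12.4, 12.8 and 12.9 CPM in stimulated WT. Labelled clone 1 had 1.69, 1.13 and 1.09 CPM uninduced and 3.51, 2.40 and 2.00 CPM stimulated. Labelled clone 2 had 0.156, 0 and 0.174 CPM uninduced and 0.392, 0.654 and 0.541 CPM stimulated. The levels fell from WT to labelled clone 1 to labelled clone 2 without overlap in both treatments, and in each line the stimulated libraries lay above the uninduced ones.

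Relative to WT, *Igfbp3* was 4.85-fold lower in stimulated labelled clone 1 and 24-fold lower in stimulated labelled clone 2 (log2 fold changes −2.28 ± 0.24 and −4.59 ± 0.36). In uninduced cells the differences were −1.12 ± 0.29 and −4.53 ± 0.52, the first of which was −0.999 without uninduced labelled clone 1 replicate 3 and then missed the fold threshold. The response was 2.16 ± 0.24 in WT, 1.00 ± 0.29 in labelled clone 1, just past the threshold, and 2.11 ± 0.59 in labelled clone 2, where the uninduced group held only 10 counts. That call in labelled clone 1 was lost, at 0.77 to 0.998, without uninduced WT replicate 1, uninduced labelled clone 1 replicate 2 or 3, or stimulated labelled clone 1 replicate 1. The labelled clone 1 response was smaller than that of WT by −1.16 ± 0.38 (edgeR adjusted p = 0.0190), a call lost without uninduced replicate 1 (−0.93) or stimulated replicate 3 (−0.996) of labelled clone 1. For labelled clone 2 the difference was −0.05, with an interval of −1.35 to 1.25, too wide to show whether the responses differ.

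*Igfbp4* (ENSMUSG00000017493, GRCm38 chr11:99041244-99054392, plus strand) encodes a binding protein that inhibits IGF action and is the main substrate of the protease PAPP-A. In WT it was 175, 205 and 194 CPM uninduced and 230.5, 204 and 222 CPM stimulated, and these overlapped. In labelled clone 1 it was 4.87, 5.74 and 7.40 CPM uninduced and 40.0, 37.6 and 34.8 CPM stimulated. In labelled clone 2 it was 12.5, 14.5 and 14.3 CPM uninduced and 36.5, 40.2 and 43.1 CPM stimulated. All 12 KO-labelled libraries lay below all 6 WT libraries, and in both labelled clones stimulation raised the level without overlap.

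*Igfbp4* was 31.9-fold lower than WT in uninduced labelled clone 1 (log2 fold change −4.99 ± 0.12, edgeR adjusted p = 4.64e-23) and 14.1-fold lower in labelled clone 2 (−3.81 ± 0.09). After stimulation it was 5.85-fold and 5.49-fold lower. The response was 0.19 ± 0.08 in WT, 2.64 ± 0.12 in labelled clone 1 and 1.55 ± 0.10 in labelled clone 2. It differed from that of WT by 2.45 ± 0.14 (edgeR adjusted p = 1.17e-13) and 1.36 ± 0.12 (edgeR adjusted p = 1.76e-09). Once stimulated, the labelled clones differed from each other by −0.09, with an interval of −0.28 to 0.09, while uninduced labelled clone 1 was 2.27-fold below labelled clone 2.

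*Igfbp5* (ENSMUSG00000026185, GRCm38 chr1:72857932-72874884, minus strand), whose product binds extracellular matrix and is linked to fibrosis, went in opposite directions in the labelled clones. It was 25.5, 27.3 and 26.6 CPM in uninduced WT and 19.1, 24.6 and 26.1 CPM in stimulated WT. Labelled clone 1 had 0.768, 0.805 and 0.984 CPM uninduced and 4.10, 2.84 and 2.23 CPM stimulated. Labelled clone 2 had 46.4, 42.9 and 45.0 CPM uninduced and 97.6, 85.4 and 92.4 CPM stimulated. Labelled clone 1 lay below and labelled clone 2 above every WT library in both treatments.

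Relative to WT, *Igfbp5* was 30.8-fold lower in uninduced (−4.95 ± 0.24) and 7.72-fold lower in stimulated labelled clone 1 (−2.95 ± 0.15), and 3.94-fold higher in stimulated labelled clone 2 (1.98 ± 0.10). In uninduced labelled clone 2 the difference of 0.76 ± 0.10 passed the adjusted p alone. The clones differed from each other by 52.2-fold uninduced and 30.5-fold stimulated (edgeR adjusted p = 2.59e-21 and 4.34e-22). WT did not pass the test for a response (−0.19 ± 0.11, edgeR adjusted p = 0.144), whereas *Igfbp5* rose with stimulation by 1.81 ± 0.26 in labelled clone 1 and by 1.03 ± 0.10 in labelled clone 2. These responses differed from that of WT by 2.00 ± 0.28 and 1.22 ± 0.15. *Igfbp5* and *Igfbp2* lie 5458 bases apart on chromosome 1, and in labelled clone 2 *Igfbp2* was without counts and *Igfbp5* above WT. The other tested genes within 200 kb of *Igfbp2* or *Igfbp5*, *Rpl37a* and *Smarcal1*, passed both thresholds in none of the 4 comparisons of a labelled clone with WT. The chromosome 1 median was −0.22 in uninduced and −0.24 in stimulated labelled clone 1, and its part in these values was not tested.

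*Igfbp6* (ENSMUSG00000023046, GRCm38 chr15:102144362-102149511, plus strand), a binding protein that prefers IGF2, was close to the limit of detection. Over the 3 libraries of a group it had 38 counts in uninduced and 3 in stimulated WT, 30 and 14 in labelled clone 1, and 137 and 18 in labelled clone 2. No library exceeded 2.09 CPM, and 1 of the uninduced WT libraries had no count while the others had 0.682 and 0.953 CPM. The uninduced labelled clone 2 libraries, at 1.42 to 2.09 CPM, were the highest. It passed the test for a fall with stimulation in WT (−3.49 ± 1.27, although the treatments overlapped at 0) and in labelled clone 2 (−2.19 ± 0.73), the latter lost without stimulated labelled clone 2 replicate 3 (edgeR adjusted p = 0.0566). It was called higher than WT in labelled clone 2, by 1.54 ± 0.66 uninduced (edgeR adjusted p = 0.0465) and 2.84 ± 1.31 stimulated (edgeR adjusted p = 0.0275). The uninduced call was lost on leaving out any 1 library other than uninduced WT replicate 3 and stimulated labelled clone 1 replicate 2. The stimulated call was lost without replicate 1 or 2 of stimulated WT or of stimulated labelled clone 2 (edgeR adjusted p = 0.0606 to 0.105). The median of 407 chromosome 15 genes was 0.46 in uninduced labelled clone 1 and 0.46 in uninduced labelled clone 2, and its part in these values was not tested.

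*Igfbp7* (ENSMUSG00000036256, GRCm38 chr5:77349240-77408041, minus strand), the weak IGF binder of the matrix, had the highest level of the members per gene length in every group and rose with stimulation in all 3 lines. It was 161, 190.0 and 186 CPM in uninduced WT and 797, 777 and 776 CPM in stimulated WT. In labelled clone 1 it was 332, 333 and 323 CPM uninduced and 1237, 1138 and 1163 CPM stimulated. In labelled clone 2 it was 311, 316 and 321 CPM uninduced and 1009, 976 and 947 CPM stimulated. The KO-labelled libraries lay above WT in both treatments without overlap, yet by less than the fold threshold, with log2 differences of 0.88 ± 0.05 and 0.82 ± 0.05 uninduced and 0.59 ± 0.05 and 0.32 ± 0.05 stimulated. The responses were 2.13 ± 0.05 in WT, 1.84 ± 0.05 in labelled clone 1 and 1.63 ± 0.05 in labelled clone 2. The antisense gene *Polr2b* covers 7.03% of its exonic bases and was called in none of the 4 comparisons of a labelled clone with WT.

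Per gene length, the IGFBP messages were dominated by *Igfbp7*. In FPKM (CPM per kilobase of the gene length in the table), *Igfbp7* stood at 148 in uninduced WT and *Igfbp4* at 43.4, which were 73.7% ± 0.66 and 21.6% ± 0.29 of the summed FPKM of the 6 IGFBP genes (SD, n = 3). In stimulated WT these shares were 91.3% and 6.98%. In all 4 KO-labelled groups *Igfbp7* held 95.6% to 99.1% and *Igfbp4* 0.496% to 1.14%. *Igfbp5* held 2.73% in uninduced and 1.83% in stimulated labelled clone 2, where it exceeded *Igfbp4*, and 0.0517% and 0.0513% in labelled clone 1. The summed FPKM itself was 201 ± 16 in uninduced WT and 275 ± 4.3 and 274 ± 4.7 in uninduced labelled clones 1 and 2, and rose to 710.0 ± 11, 986 ± 44 and 833 ± 25 with stimulation. The plot of FPKM by library shows this order.

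**Figure D2:**
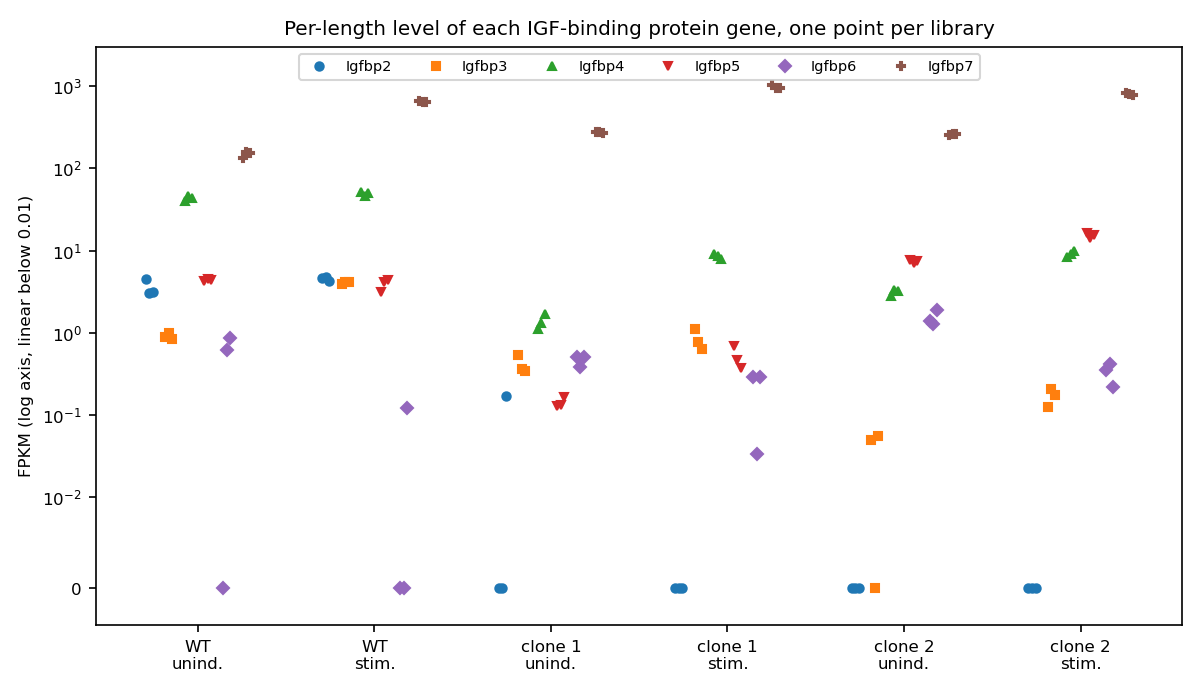
FPKM of the 6 IGFBP genes (vertical axis, logarithmic above 0.01 and linear below it so that libraries without counts appear at 0) in the 6 groups, 1 point per library and 1 symbol per gene. *Igfbp7* lies above the others in every library, *Igfbp4* is second in WT at 43.4 and 49.6 FPKM, and *Igfbp5* is second in labelled clone 2 at 7.45 and 15.3 FPKM.

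All 10 members passed the filter on low counts, which 14317 genes passed. *Igfbp2*, with counts in only 1 KO-labelled library, passed it only through WT. Its lower calls in the labelled clones are therefore not independent of the filter. The members were chosen with earlier results of these data known, so the shares below are not a test of the set. In uninduced cells, labelled clone 1 had 5 members lower than WT, where 8.73% of all tested genes were lower, and 0 higher, where 6.32% were higher (15.1% in either direction). Uninduced labelled clone 2 had 4 lower (*Igf1*, *Igfbp2*, *Igfbp3* and *Igfbp4*; 9.56% of all tested genes) and 1 higher (*Igfbp6*; 5.54%), again beside 15.1% in either direction. In stimulated cells, labelled clone 1 had 6 members lower (9.6% of all tested genes) and 1, *Irs2*, higher (9.42%), beside 19.0% in either direction. Stimulated labelled clone 2 had 5 lower (8.94%) and 3 higher (7.95%), beside 16.9%. Among these calls against WT, *Igfbp3* in uninduced labelled clone 1 and *Igfbp6* in labelled clone 2 were lost in some single omissions. The median log2 fold change of the 10 members was −1.05 and −0.65 in uninduced and −1.80 and −0.90 in stimulated labelled clones 1 and 2, where those of all tested genes were −0.01, −0.02, −0.02 and −0.01. Both clones share their WT libraries, and their differences, set side by side in the plot of clones against WT, are not independent of each other. By the adjusted p alone, 9 members in each labelled clone differed from WT uninduced (53.5% and 53.2% of all tested genes in labelled clones 1 and 2), and 8 and 10 did stimulated (58.9% and 56.0%). Between the clones, 6 members passed both thresholds uninduced, 3 higher in labelled clone 1 (4.89% of all tested genes) and 3 lower (3.78%), beside 8.67% in either direction. In stimulated cells 3 did, *Igf1* and *Igfbp3* higher (5.5%) and *Igfbp5* lower (4.48%) in labelled clone 1, beside 9.98%. Of the uninduced calls, that of *Igfbp2*, higher in labelled clone 1, rested on 6 counts in 1 library. That of *Igfbp6*, lower in labelled clone 1, was lost without any 1 uninduced library of either labelled clone (edgeR adjusted p = 0.0717 to 0.137) and in some other omissions. Between the clones, the adjusted p alone was passed by 8 members uninduced (42.2% of all tested genes) and 6 stimulated (45.4%).

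Genes lying near the members were read in the same 4 comparisons of a labelled clone with WT. Within 200 kb of a member lay 33 other tested genes, of which 10 passed both thresholds in at least 1 of them and 23 in none. Each comparison alone called 15.1% to 19.0% of all tested genes, and the share called in at least 1 of the 4 was not computed. The 10 are therefore not read as a result about these regions. *Col4a1*, a collagen IV gene 189965 bases from *Irs2*, was higher in all 4, by 1.11 to 2.35 on the log2 scale. *Fam169b*, beside *Igf1r*, was lower in all 4, with log2 fold changes of −1.16 to −1.58. *Adcy1*, an adenylyl cyclase gene beside *Igfbp3*, was lower in labelled clone 1, at −5.38 uninduced and −3.13 stimulated. Its levels were low, at 0.120 CPM against 5.35 CPM in WT uninduced. Stimulated, they were 0.0275 CPM, below the floor of 3 counts, against 0.297 CPM in WT. *Tns2*, beside *Igfbp6*, was higher in both labelled clones after stimulation, by 1.78 and 1.79. *Col4a4*, 157007 bases from *Irs1*, was higher in uninduced labelled clone 2 (1.99), at group means of at most 0.589 CPM. The others, each within 200 kb, were *Synm* near *Igf1r*, *Top2a* and *Cdc6* near *Igfbp4*, and *Csad* and *Espl1* near *Igfbp6*. These genes were named after their values were seen, and their part in the members' values was not tested.

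**Figure D3:**
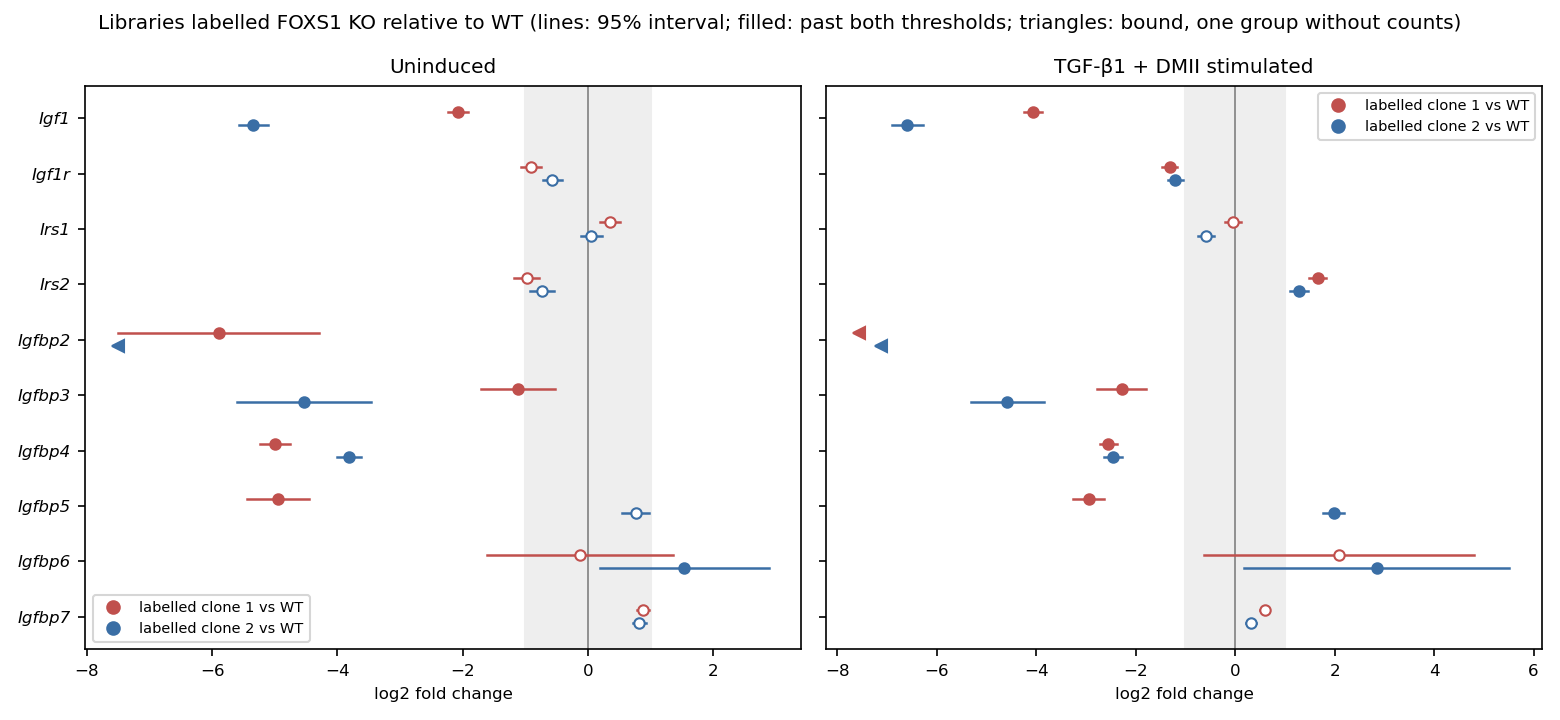
Log2 fold change (horizontal axis) of the 10 members in libraries labelled FOXS1 KO relative to WT, uninduced on the left and stimulated on the right, red for labelled clone 1 and blue for labelled clone 2, with 95% intervals as lines, filled points past both thresholds, the band from −1 to 1 in grey and triangles for bounds where one group had no count. *Igf1*, *Igfbp3* and *Igfbp4* lie left of the band for both clones in both panels, *Igfbp5* on opposite sides (−2.95 and 1.98 when stimulated), and *Irs2* crosses from −0.98 and −0.74 to 1.66 and 1.29.

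With stimulation, 3 members rose in WT (*Igf1r*, *Igfbp3* and *Igfbp7*; 6.25% of all tested genes rose) and 1 fell (*Igfbp6*; 13.6% fell), beside 19.9% in either direction. Labelled clone 1 had 6 that rose (5.95% of all tested genes) and 2 that fell (10.7%), beside 16.7%. Its *Igfbp2* fall rested on 6 counts in 1 library, and its *Igfbp3* rise was lost in several single omissions. Labelled clone 2 had 6 that rose (6.46%) and 1 that fell (11.2%), beside 17.7%. That fall, of *Igfbp6*, was lost in 1 single omission. The 6 that rose were *Igf1r*, *Irs2*, *Igfbp3*, *Igfbp4*, *Igfbp5* and *Igfbp7* in each labelled clone. The median response of the members was 0.41 in WT, 1.33 in labelled clone 1 and 1.23 in labelled clone 2, beside −0.04, −0.02 and −0.02 over all tested genes. The response of labelled clone 1 differed from that of WT past both thresholds for 6 members, 3 higher (5.34% of all tested genes) and 3 lower (3.46%), beside 8.81% in either direction. That of labelled clone 2 did so for 4, with *Irs2*, *Igfbp4* and *Igfbp5* higher (4.89%) and *Igf1* lower (2.96%), beside 7.85%. Among the 3 lower in labelled clone 1, the *Igfbp2* and *Igfbp3* calls were each lost in some single omissions. The adjusted p alone was passed by 8 members in the WT response and by 8 and 9 in those of labelled clones 1 and 2, where 60.7%, 54.5% and 55.8% of all tested genes passed it. For the differences in response it was passed by 9 and 7 members, where 31.6% and 31.2% of all tested genes passed it.

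**Figure D4:**
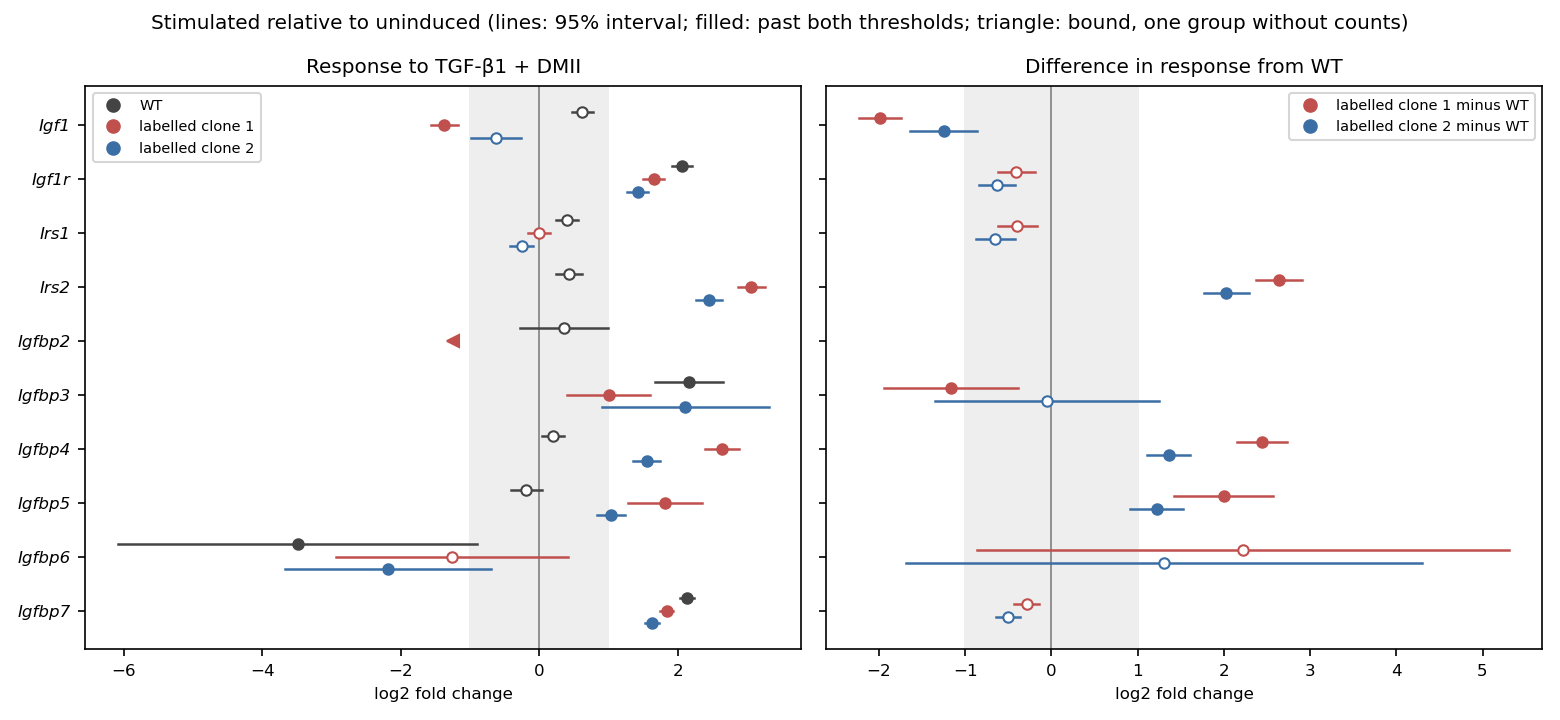
Left, log2 fold change of stimulated relative to uninduced cells (horizontal axis) for the 10 members in WT (grey), labelled clone 1 (red) and labelled clone 2 (blue). Right, the difference of each labelled clone's response from that of WT. Lines are 95% intervals, filled points passed both thresholds, the grey band runs from −1 to 1, and the triangle is a bound for *Igfbp2*, which has no point where a group had no count. *Irs2* responded by 0.43 in WT, 3.06 in labelled clone 1 and 2.45 in labelled clone 2, and *Igf1* by 0.62, −1.37 and −0.63.

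Other genes of the pathway were read from 5 lists, with examples taken by the size of their change. Of 7 further ligands, receptors and carriers, 3 passed the filter. *Igf2*, the second ligand, had 2 counts in uninduced and 11 in stimulated WT and no count in any KO-labelled library, and *Igfbp1*, a binding protein of liver, had no count in any of the 18 libraries, which allows at most 0.0354 to 0.0603 CPM in a group. *Insr*, the insulin receptor gene, averaged 36.8 and 51.2 CPM in uninduced and stimulated WT, 43.5 and 80.7 CPM in labelled clone 1 and 46.1 and 80.6 CPM in labelled clone 2, and was called in no comparison. *Igf2r*, a receptor that clears IGF2, ranged from 276 to 523 CPM in the group means and was called in none. *Igfals*, which holds IGF complexes in blood, fell with stimulation in all 3 lines, from 2.11 to 0.0489 CPM in WT, from 4.37 to 0.197 CPM in labelled clone 1 and from 7.44 to 0.157 CPM in labelled clone 2.

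Of 6 IGFBP proteases and their inhibitors, all 6 were tested. In uninduced cells 4 were lower and 2 higher in labelled clone 1, and 3 lower and 2 higher in labelled clone 2, while in stimulated cells the counts were 3 and 2, and 3 and 1. Beside these stand the shares of all tested genes, 8.73% lower and 6.32% higher in uninduced labelled clone 1, 9.56% and 5.54% in uninduced labelled clone 2, 9.6% and 9.42% in stimulated labelled clone 1, and 8.94% and 7.95% in stimulated labelled clone 2. *Htra1*, a secreted serine protease, averaged 20.4 CPM in uninduced and 55.8 CPM in stimulated WT, 0.276 and 0.0246 CPM in labelled clone 1 and 0.904 and 0.317 CPM in labelled clone 2, with no overlap with WT. *Adam12*, a metalloprotease that cuts IGFBP3 and IGFBP5, rose with stimulation in all 3 lines and averaged 151 CPM in stimulated WT, 33.4 CPM in labelled clone 1 and 33.7 CPM in labelled clone 2. *Pappa*, which encodes PAPP-A, rose from 10.7 to 27.9 CPM in WT and from 2.07 to 7.73 CPM in labelled clone 1. Labelled clone 2 went from 8.26 to 16 CPM, and neither that response nor its differences from WT passed the fold threshold. Its paralog *Pappa2* was higher than WT in both labelled clones before stimulation, at 21.1 and 16.4 CPM against 2.92 CPM. *Stc1*, whose product inhibits PAPP-A, fell with stimulation in WT from 27.0 to 1.01 CPM. It was lower than WT in uninduced labelled clone 1, at 5.27 CPM, and higher than WT in stimulated labelled clone 1, at 3.42 CPM. The mean in labelled clone 2 was 0.487 CPM uninduced with no count after stimulation.

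Of 32 signal transduction genes, 30 were tested and between 2 and 8 were called in a comparison (6.67% to 26.7% of the list, where 7.85% to 19.9% of all tested genes were called). The 8 were in stimulated labelled clone 2 against WT, beside 16.9% of all tested genes. *Grb10*, an adaptor that restrains insulin and IGF1 receptor signalling, was lower in both labelled clones: it averaged 699.6 ± 23 CPM in uninduced WT, 179 ± 7.6 CPM in labelled clone 1 and 306 ± 10 CPM in labelled clone 2. *Pik3r1*, a regulatory subunit of PI3 kinase, was higher, at 98.5 ± 15, 384 ± 0.41 and 212 ± 14 CPM uninduced and 107, 537 and 321 CPM stimulated. *Grb14*, another restraining adaptor, rose with stimulation from 3.12 to 52.6 CPM in WT and from 8.61 to 20.1 and from 4.15 to 24.7 CPM in labelled clones 1 and 2, and its response was smaller in both (−2.82 ± 0.18 and −1.45 ± 0.18). *Trib3*, a pseudokinase that binds AKT, was higher in labelled clone 2 than in WT, by 2.71 ± 0.09 uninduced and 1.75 ± 0.08 stimulated. Of 3 *Igf2* mRNA-binding protein genes, 2 were tested, and *Igf2bp2* was higher than WT in labelled clone 2 in both treatments (1.55 ± 0.07 and 1.29 ± 0.07).

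Of 12 genes known to be raised by FOXO factors when insulin or IGF signalling is low, 11 were tested, and their median difference from WT was −0.32 and −0.01 in uninduced and 0.12 and 0.41 in stimulated labelled clones 1 and 2. Called members were 1 higher and 1 lower in uninduced labelled clone 1, 1 higher and 2 lower in uninduced labelled clone 2, 1 higher and 1 lower in stimulated labelled clone 1, and 3 higher and 0 lower in stimulated labelled clone 2. These are 2 or 3 of 11, beside 15.1% to 19.0% of all tested genes. With stimulation, 2 rose and 1 fell in WT, 3 rose and 0 fell in labelled clone 1, and 4 rose and 1 fell in labelled clone 2, with 16.7% to 19.9% of all tested genes called in those comparisons. The response was larger than that of WT for 1 gene in labelled clone 1 and 2 in labelled clone 2 and smaller for 0 in both, beside 8.81% and 7.85% of all tested genes called, and the median differences in response were 0.40 and 0.51. *Pdk4*, a kinase that limits glucose oxidation, rose with stimulation from 137 to 928 CPM in WT, from 4.21 to 163 CPM in labelled clone 1 and from 12.4 to 497 CPM in labelled clone 2. On the log2 scale its response was larger by 2.51 ± 0.12 and 2.56 ± 0.09 in the labelled clones. These started from lower levels, and their stimulated means stayed below that of WT. *Cited2*, a transcriptional coregulator, was higher than WT in both labelled clones in both treatments, by 1.21 to 1.75 on the log2 scale. *Gadd45a*, a stress-induced growth arrest gene, averaged 129 CPM in stimulated labelled clone 2 against 40.6 CPM in stimulated WT. *Eif4ebp1*, a translation repressor, rose with stimulation in WT (1.67 ± 0.08) and in labelled clone 2 (1.13 ± 0.08). *Irs2*, itself known as a FOXO target, was not counted in this list.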

How the data were processed

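Bulk RNA sequencing of 18 libraries of 10T1/2 cells was analysed from the gene counts that the authors deposited, which are raw, unnormalized whole-number counts. They sequenced poly(A) RNA and mapped reads to mm10 with HISAT2. How reads were counted, on which annotation release and with which strand setting is not given in the sources used here. Gene positions and lengths in the deposited table matched GENCODE M21 (GRCm38) for all 10 members. Samples were grouped by the titles given in the labels.

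Tests used edgeR 4.0.16 in R 4.3.3, after filterByExpr by group (minimum count 10, 14317 genes kept), with TMM scaling, 1 mean per group, glmQLFit (robust) and glmQLFTest. A call needed an absolute log2 fold change above 1 with an adjusted p (Benjamini-Hochberg) below 0.05, the thresholds of the study. Comparisons were stimulated with uninduced cells in each line, each labelled clone with WT and with the other clone in each treatment, and the difference in response from WT. SEs are Wald SEs from the fitted weights and quasi-dispersion, and intervals are 95%. A group without counts was set to a floor of 3 counts (0.0354 to 0.0603 CPM) in bounds. Levels are CPM, and FPKM divides them by gene length. Replicates of a group correlated with an r of 0.963 to 0.993 across genes and differed by more than counting error. The lowest were those of uninduced WT, at 0.963 to 0.983, and every other group was at 0.987 or above. The procedure was also run on simulated counts, with fewer changed genes than were called here and a spread set in advance. That run cannot show its error rates in these libraries.

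Alternatives were each library left out in turn, a block for replicate number, fits restricted to the groups under comparison, dropping the fold threshold, keeping genes with any count or those above 1 CPM in 3 libraries, DESeq2 size factors in edgeR, and the Wald test of DESeq2 1.42.0. The members and the gene lists were chosen with earlier results of these data known. Named were all members, *Foxs1*, *Igf2*, *Insr*, *Igf2r*, *Igfbp1*, *Igfals* and *Pappa*, and from each list at most 4 called genes with the largest changes and a mean of at least 5 CPM. Some marker, antisense and neighbouring genes are named besides.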

Additional observations from a re-analysis of the deposited data

Results flagged for a closer look

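The response to TGF-β1 + DMII differed between a labelled clone and WT, by the interaction test itself, for 6 members in labelled clone 1 and 4 in labelled clone 2. Of all tested genes, 8.81% and 7.85% did so. The difference on the log2 scale was largest for *Irs2*, at 2.64 in labelled clone 1 and 2.03 in labelled clone 2, apart from that of *Igfbp2*. For *Igfbp4* it was 2.45 and 1.36, and for *Igfbp5* 2.00 and 1.22. *Igf1* differed in the other direction, by −1.99 and −1.25.

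For labelled clone 1 alone, *Igfbp3* differed by −1.16 and *Igfbp2* by −4.60. The *Igfbp2* value rested on 6 counts in 1 uninduced library and was −0.35 without it. The *Igfbp3* call was lost without uninduced replicate 1 or stimulated replicate 3 of labelled clone 1. The *Igfbp3* difference between the labelled clones' responses was not tested. All of these use the same 6 WT libraries, and their cause was not tested.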

How the results depend on the processing

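No member changed direction past the thresholds under any alternative run. DESeq2, its size factors and both other filters left each of the 110 member comparisons on its side of the thresholds, and scaling by DESeq2 moved the median of all genes by at most 0.0147 (log2). Without the fold threshold, members called were 8 in the WT response, 9 in uninduced labelled clone 1 and 9 in uninduced labelled clone 2 against WT, 6 between the stimulated clones and 7 in the difference in response of labelled clone 2, beside 60.7%, 53.5%, 53.2%, 45.4% and 31.2% of all tested genes. On leaving out 1 library at a time, members called ranged from 4 to 4 in the WT response, 6 to 8 and 6 to 7 in the responses of labelled clones 1 and 2, 4 to 6 and 4 to 5 against WT uninduced, 7 to 8 and 7 to 8 stimulated, 4 to 6 and 3 to 3 between the clones, and 4 to 6 and 4 to 4 for the differences in response. With all libraries, these comparisons called 7.85% to 19.9% of all tested genes. Counted over every member, comparison and omission, a call was lost 57 times, all for *Igfbp2*, *Igfbp3* or *Igfbp6*. The same call was often lost in several omissions and is then counted once for each. Fitting only the groups compared ended the call of *Igfbp6* in uninduced labelled clone 2 (edgeR adjusted p = 0.0900) and that of the *Igfbp2* response difference of labelled clone 1 (edgeR adjusted p = 0.0533). *Igfbp6* in stimulated labelled clone 1 against WT, not called with all libraries, was called at 5.25 (edgeR adjusted p = 0.0248) without stimulated WT replicate 3, which held all 3 counts of its group, and at 2.66 (0.0466) without stimulated labelled clone 1 replicate 2.

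No pairing by replicate number was seen: the deviations of same-numbered libraries correlated at −0.0412 to 0.0498. This cannot show whether such libraries were handled together, which the labels do not say. With the replicate block the calls lost were *Igfbp2* in the response of labelled clone 1 (edgeR adjusted p = 0.0676), between the uninduced clones (0.0605) and in the difference in response (0.0795), and *Igfbp6* between the uninduced clones (0.0517). Low counts limit *Igfbp2* in both labelled clones, where a group held 6 counts or fewer, and *Igfbp3* in labelled clone 2, with 10 and 26. They also limit *Igfbp6* in WT and both labelled clones, with 3 to 38 counts in a group apart from 137 in uninduced labelled clone 2.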
